A study of Rattus norvegicus with 21 samples.

Results

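The matrix metalloproteinases and their tissue inhibitors were followed through 8 genes: the metalloproteinases Mmp3, Mmp9, Mmp10, Mmp13 and Mmp14 and the inhibitors Timp1, Timp2 and Timp3. Members were all probe sets whose only gene symbol in the array's annotation is one of these names. This gave 13 probe sets, 6 for the metalloproteinases and 7 for the TIMPs, out of 15866 probe sets tested and 10411 symbols. A probe set is a group of short probes for one transcript, and its level is a log2 signal. A level below the lower quartile of its own array (4.36 to 4.54, depending on the array) was read as background, so a fold against a group whose arrays were all below it is a lower bound. Where only some arrays of a group were below it, the log2 difference is given without a fold. The level of one probe set is not set against that of another, because probes differ in how brightly they bind.

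Metalloproteinases are zinc-dependent proteases that cut collagens, laminins, fibronectin and other proteins of the matrix around cells. Most are secreted as inactive proenzymes, which plasmin or another metalloproteinase can activate, and MMP14 is anchored in the plasma membrane. TIMPs bind the active site and block it. In carcinomas, these enzymes are known for their part in the breakdown of basement membrane and in cell migration, and growth factors that signal through ERK are known to induce several of their genes through AP-1 and ETS transcription factors.

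The samples were total RNA of NBTII, a cell line from a rat bladder carcinoma, and of NBTII-FGFR1, its derivative that carries a transfected FGF receptor 1. Both lines were stimulated with FGF1 (20 ng/ml) plus heparin and collected at 0.5, 2, 6, 24 and 48 h, and unstimulated control cells stood for 0 h. There was 1 array per sample and 21 arrays in 12 groups. A single array stood for 3 groups (NBTII at 0 h, NBTII at 0.5 h and NBTII-FGFR1 at 0.5 h), and the other 9 groups had 2. The labels name neither the promoter that drives the receptor nor how many clones the transfected line holds. No array after 0 h lacked FGF1, so time in culture, heparin and FGF1 cannot be told apart in any comparison with 0 h. Whether the 2 replicates of a group were separate cultures is not stated, so p-values describe the scatter among these samples alone, part or all of which may be technical.

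The transfected gene checked the labels. Fgfr1 read 3.58 to 4.05 on the 10 NBTII arrays and 4.56 to 7.58 on 10 of the 11 NBTII-FGFR1 arrays, but 3.57, the level of the untransfected line, in 1 control library labelled NBTII-FGFR1 (replicate 1 of 0 h). In Fos and Plaur the same library was near its partner and away from the NBTII control. Fos read 9.52 and 9.03 in the NBTII-FGFR1 controls and 4.90 in that of NBTII. Plaur read 6.91 and 7.22 against 5.70. The series' design text says that controls were not duplicated, whereas the sample titles give 2 NBTII-FGFR1 controls. NBTII-FGFR1 2 h replicate 1 was doubted too, from earlier results of these data. The members differ between the 2 replicates of that time (Mmp10 read 5.40 and 7.57, Mmp13 10.10 and 8.24), and 2 arrays cannot tell which is the odd one. Differences that use either array are given with both in the fit, and then without these 2 doubted arrays. Spiked-in bacterial control RNAs averaged 6.13 to 6.64 on the 3 arrays of 0 h and 5.33 to 5.72 on the 18 later arrays. A technical difference thus runs alongside every comparison with 0 h, and its part in those results was not tested. Of 8 epithelial markers, 6 were above the lower quartile on all 21 arrays (Cdh1, Krt5, Krt8, Krt14, Dsp and Epcam), Krt19 was below it on all, and none of the 4 urothelial uroplakin genes could be read from a probe set of its own. Of other cell types, the leukocyte marker Ptprc, the endothelial markers Pecam1 and Kdr and the fibroblast markers Col1a2, Dcn, Pdgfra and Lum were below the lower quartile on every array. Above it on every array were 4 of 7 leukocyte markers (Cd68, Itgam, Cd14 and Lyz2) and 2 of 7 fibroblast markers (Col1a1 and Thy1). The mean of the leukocyte list was 5.02 to 5.22 in NBTII and 4.95 to 5.27 in NBTII-FGFR1, and that of the fibroblast list was 4.21 to 4.36 and 4.09 to 4.36.

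Mmp13, Mmp3 and Mmp10 lie in one gene cluster on rat chromosome 8, in the order Mmp13, Mmp12, Mmp1b, Mmp3, Mmp1, Mmp10, Mmp8, Mmp27, Mmp20, Mmp7. Mmp9 is on chromosome 3, Mmp14 on 15, Timp1 on X, Timp2 on 10 and Timp3 on 7. The sequences just before the start sites of the 3 clustered members are shown because these genes lie together and rose at all 4 times from 2 h on in NBTII-FGFR1. That of Timp1 is shown because it is the inhibitor that passed the test at 2, 6 and 24 h there, though not at 48 h. Each line is 250 bases, 5′ to 3′ on the gene's strand, from RefSeq on GRCr8. Capitals mark every match to the AP-1 motif TGANTCA or the ETS motif AGGAAG, searched on both strands. The windows are chr8:12782579-12782828 (plus strand) for Mmp13, chr8:12925031-12925280 (plus) for Mmp3, chr8:12974457-12974706 (plus) for Mmp10 and chrX:3771123-3771372 (minus) for Timp1.
Mmp13: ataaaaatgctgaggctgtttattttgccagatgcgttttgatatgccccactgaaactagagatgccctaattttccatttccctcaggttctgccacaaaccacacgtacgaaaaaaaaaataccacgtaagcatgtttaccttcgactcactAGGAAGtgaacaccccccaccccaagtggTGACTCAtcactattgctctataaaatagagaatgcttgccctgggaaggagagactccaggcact
Mmp3: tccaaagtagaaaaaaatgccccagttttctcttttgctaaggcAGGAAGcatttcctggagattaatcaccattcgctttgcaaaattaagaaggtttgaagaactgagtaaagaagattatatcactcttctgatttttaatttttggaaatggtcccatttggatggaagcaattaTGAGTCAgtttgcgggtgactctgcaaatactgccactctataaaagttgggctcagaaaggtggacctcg
Mmp10: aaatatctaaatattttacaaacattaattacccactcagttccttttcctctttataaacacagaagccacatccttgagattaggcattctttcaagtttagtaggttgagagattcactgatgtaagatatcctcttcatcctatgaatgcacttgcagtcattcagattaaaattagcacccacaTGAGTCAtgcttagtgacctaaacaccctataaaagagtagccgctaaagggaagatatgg
Timp1: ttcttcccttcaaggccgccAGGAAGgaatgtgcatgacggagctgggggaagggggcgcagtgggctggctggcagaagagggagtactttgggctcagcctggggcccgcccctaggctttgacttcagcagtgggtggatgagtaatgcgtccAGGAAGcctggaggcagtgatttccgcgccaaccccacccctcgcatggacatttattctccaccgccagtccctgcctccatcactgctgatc

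An AP-1 match stood at nearly the same place in Mmp3 (-71 to -65, counted from the start site), Mmp13 (-66 to -60) and Mmp10 (-61 to -55). Of 33469 rat promoter windows of the same length, 6.34% held this motif. Promoter sequences were at hand for 6 of the 8 members, all but Mmp9 and Mmp14, and the windows of Timp1, Timp2 and Timp3 held no AP-1 match. The ETS motif was in Mmp3, Mmp13 and, at 2 places, Timp1 (29.5% of all windows). A TATAAA lay at -32 in Mmp3, -33 in Mmp10 and -47 in Mmp13 (12.9% of all windows), with 2 more overlapping copies farther up in Mmp10. The GC box GGGCGG was in the windows of the 3 TIMPs and of none of the 3 metalloproteinases (30.5% of all windows). Base composition differed too, with 38.8% G and C in Mmp3, 36% in Mmp10 and 44.4% in Mmp13 against 61.2% in Timp1, 72% in Timp2 and 69.6% in Timp3. A match is only a stretch of letters and does not show that a factor binds there. Variants of the motifs were not searched, so a window without a match may still hold a site. The Timp1 window holds tgagtaa, a near match to the AP-1 motif, shortly before its second ETS match.

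**Figure D1:**
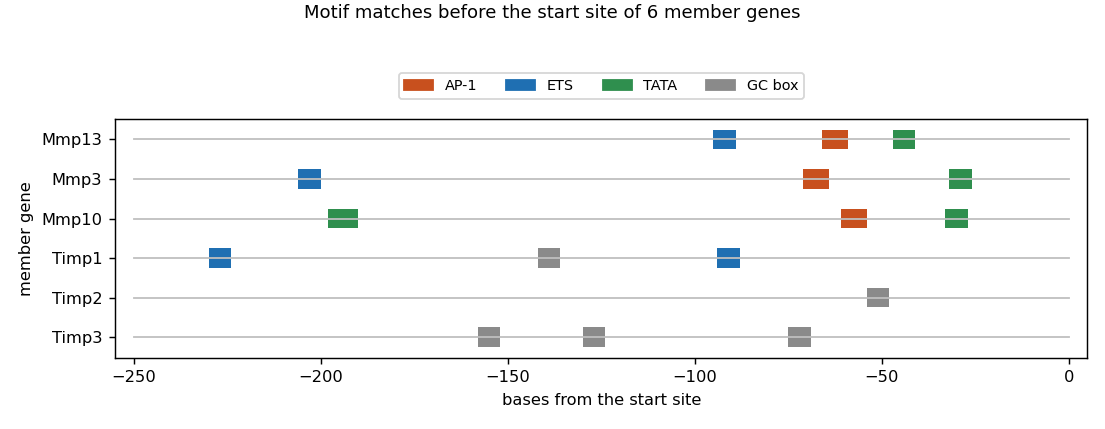
Motif matches in the 250 bases before the start site of the 6 member genes with a promoter sequence. The x axis gives the distance from the start site in bases, each row is a gene and each coloured block is a match on either strand. The AP-1 matches of Mmp13, Mmp3 and Mmp10 line up between -71 and -55, and the TIMP rows hold GC boxes and no AP-1 match.

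In NBTII-FGFR1 cells Mmp3, Mmp10 and Mmp13 rose at 2 h and were still raised at 48 h. Mmp9 rose to a peak at 6 h, and Mmp14 rose less, at 2, 6 and 48 h. In parental NBTII cells Mmp13 rose at 2, 6, 24 and 48 h, Mmp14 at 2 and 6 h and Mmp3 at 6 and 24 h. There Mmp10 and Mmp9 passed the test at none of the 4 times from 2 h on with all arrays. Timp1 rose in both lines to 6 h and fell by 24 h, Timp2 rose late in NBTII-FGFR1 by one probe set, and Timp3 stayed near or below background. Between the lines Mmp3 passed the test at 2, 6, 24 and 48 h, although its 2 and 24 h calls were not firm. Mmp10 and Mmp9 passed at some of these times and Mmp13 at 48 h, and Mmp14 and the TIMPs passed at none in the main fit.

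Counted over the 13 probe sets, 1 rose at 0.5 h over both lines (2.2% of all probe sets passed that test, in either direction). In NBTII-FGFR1, 7 of 13 rose at 2 h (9.35% of all), 7 at 6 h (21.3%), 4 at 24 h (6.3%) and 7 at 48 h (21.4%), and none fell. In NBTII, 3 rose at 2 h (2.94%), 4 at 6 h (5.9%), 2 at 24 h (0.939%) and 1 at 48 h (0.908%), again with none lower. The median log2 difference of the 13 was 1.16, 1.57, 0.18 and 0.77 at these times in NBTII-FGFR1, against -0.06 to 0.02 over all probe sets, and 0.12, 0.67, 0.06 and 0.06 in NBTII, against -0.02 to 0.02. The NBTII-FGFR1 counts without the doubted arrays were 6, 7, 3 and 5. The comparisons with 0 h within a line share their 0 h arrays, so their agreement with each other is no separate evidence.

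**Figure D2:**
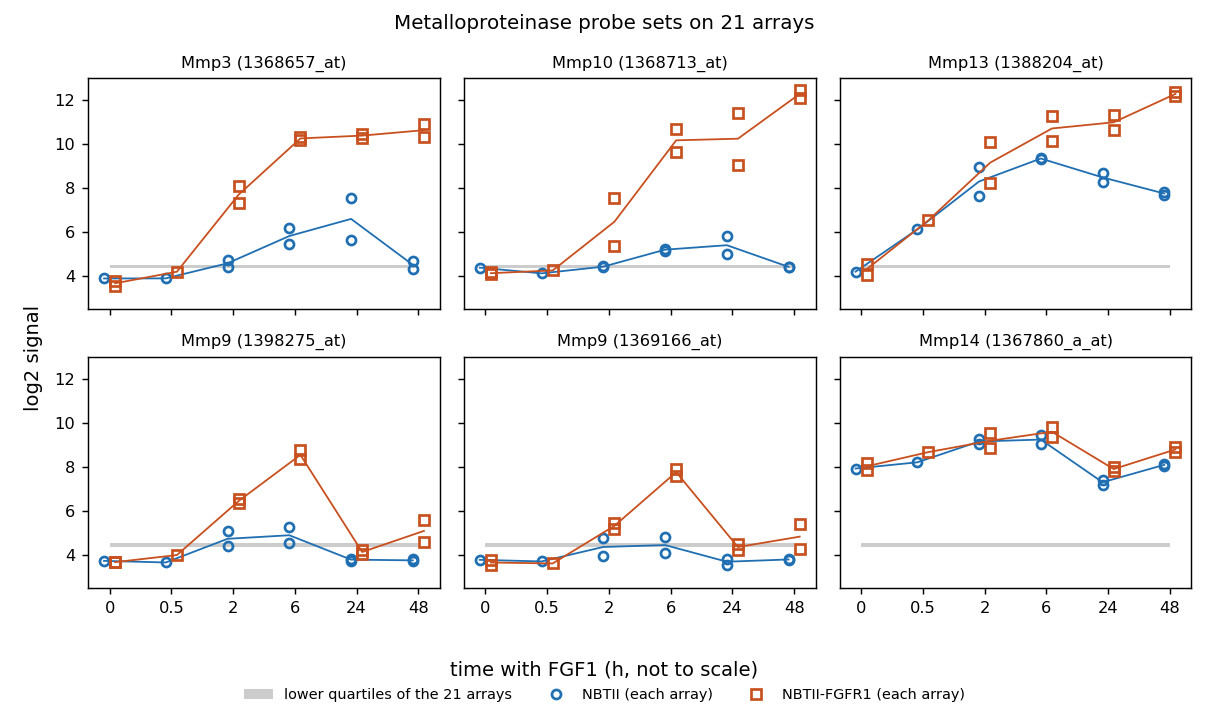
Log2 signal of the 6 metalloproteinase probe sets on the 21 arrays, by hours with FGF1 (x axis, not to scale). Circles are NBTII arrays, squares NBTII-FGFR1 arrays, lines join group means, and the grey band spans the arrays' lower quartiles, below which a level is background. From 6 h on, Mmp3, Mmp10 and Mmp13 are higher on every NBTII-FGFR1 array than on any NBTII array of the same time, and Mmp9 peaks at 6 h and returns to it by 24 h.

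Mmp3 encodes stromelysin 1, which cuts proteoglycans, laminin and fibronectin and activates other metalloproteinases. Its probe set (1368657_at) read 3.57 and 3.79 in the NBTII-FGFR1 controls, 4.21 at 0.5 h, 8.10 and 7.33 at 2 h, 10.34 and 10.20 at 6 h, 10.31 and 10.49 at 24 h and 10.94 and 10.35 at 48 h. All 8 arrays from 2 h on lay above every array of 0 and 0.5 h, and the 6, 24 and 48 h arrays overlapped, so no order among those times can be given. The rise was at least 9.67-fold at 2 h (log2 4.03 ± 0.44 SE, adjusted p = 5.67e-05), at least 56.8-fold at 6 h (6.59 ± 0.44, adjusted p = 1.37e-06), at least 62.1-fold at 24 h and at least 73.7-fold at 48 h (adjusted p = 6.6e-07), with n = 2 arrays in each group. The log2 differences without the doubted arrays were 3.54 ± 0.62 at 2 h (adjusted p = 0.00632), 6.48 ± 0.54 at 6 h (adjusted p = 2.82e-05), 6.61 at 24 h (adjusted p = 0.000131) and 6.85 at 48 h (adjusted p = 1.87e-05).

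In NBTII the same probe set read 3.90 at 0 h, 3.91 at 0.5 h, 4.77 and 4.42 at 2 h, 5.46 and 6.21 at 6 h, 5.66 and 7.56 at 24 h and 4.36 and 4.69 at 48 h. Mmp3 was thus highest at 6 and 24 h, where the arrays overlapped, and the 48 h arrays overlapped those of 2 h. It rose at least 2.59-fold at 6 h (1.93 ± 0.54, adjusted p = 0.0481) and at least 4.44-fold at 24 h (2.71 ± 0.54, adjusted p = 0.0296). Neither call was firm: leaving out 1 array ended the 6 h call in 14 of 18 fits (adjusted p up to 0.204), and without replicate 2 at 24 h the 24 h difference was 1.76 (adjusted p = 0.0977). The step from 24 to 48 h, a comparison added after the values were seen, was -2.09 ± 0.44 (adjusted p = 0.0838).

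Mmp3 was higher in NBTII-FGFR1 than in NBTII at each time from 2 h on, without overlap between the lines' arrays. The lines differed 8.71-fold at 2 h (3.12 ± 0.44, adjusted p = 0.00537), 21.7-fold at 6 h (4.44 ± 0.44, adjusted p = 0.000306), 13.8-fold at 24 h (3.79 ± 0.44, adjusted p = 0.00633) and by 6.12 ± 0.44 on the log2 scale at 48 h (adjusted p = 3.55e-06), where 1 of the 2 NBTII arrays was at background. Without the doubted arrays the 2 h difference was 2.74 ± 0.54 (adjusted p = 0.061), and the 24 h call ended without NBTII-FGFR1 24 h replicate 2 (adjusted p = 0.15).

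Mmp10 encodes stromelysin 2, a close relative of stromelysin 1 with similar substrates. Its probe set (1368713_at) read 4.20 and 4.09 in the NBTII-FGFR1 controls, 4.27 at 0.5 h, 5.40 and 7.57 at 2 h, 9.65 and 10.72 at 6 h, 9.08 and 11.44 at 24 h and 12.48 and 12.12 at 48 h. Its replicates were far apart at 2 and 24 h, the 6 and 24 h arrays overlapped, and both 48 h arrays were higher than any other. The rise was at least 53.5-fold at 6 h (log2 6.04 ± 0.65, adjusted p = 2.72e-05), at least 56.3-fold at 24 h (6.11 ± 0.65, adjusted p = 0.000126) and at least 231-fold at 48 h (8.15 ± 0.65, adjusted p = 2.24e-06). At 2 h it was at least 4.11-fold (2.34 ± 0.65, adjusted p = 0.0359), a call that ended in 5 of the 18 fits with 1 array left out (without 2 h replicate 2 the difference was 1.25, adjusted p = 0.267). With the doubted arrays left out the differences were 3.48 ± 0.77 at 2 h (adjusted p = 0.0215), 6.10 ± 0.67 at 6 h (adjusted p = 0.000144), 6.17 at 24 h (adjusted p = 0.00102) and 8.21 at 48 h (adjusted p = 2.52e-05). The 48 h arrays exceeded those of 24 h by 2.04 ± 0.65, which did not pass the test (adjusted p = 0.0645) except without the doubted arrays (adjusted p = 0.0284).

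In NBTII, Mmp10 read 4.40 at 0 h, 4.14 at 0.5 h, 4.47 and 4.42 at 2 h, 5.17 and 5.25 at 6 h, 5.01 and 5.82 at 24 h and 4.42 and 4.45 at 48 h. The 4 arrays of 6 and 24 h were the highest of the line, yet none of the differences from 0 h passed (0.82 at 6 h, adjusted p = 0.716; 1.02 at 24 h, adjusted p = 0.753), and their intervals were wide (-0.89 to 2.52 and -0.68 to 2.72). The lines differed 31.4-fold at 6 h (4.97 ± 0.65, adjusted p = 0.00291), 28.7-fold at 24 h (4.84 ± 0.65, adjusted p = 0.0125) and at least 225-fold at 48 h (7.86 ± 0.65, adjusted p = 1.14e-05). The 6 h call ended without NBTII-FGFR1 6 h replicate 2 (4.44, adjusted p = 0.0527) and the 24 h call in 3 of 18 fits (adjusted p up to 0.181). At 2 h the difference of 2.04 did not pass (adjusted p = 0.103), nor did it without the doubted arrays (3.13, adjusted p = 0.0686).

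Mmp13 encodes collagenase 3, which cuts the fibrillar collagens. Its probe set (1388204_at) read 4.21 at 0 h in NBTII, 6.13 at 0.5 h, 8.99 and 7.64 at 2 h, 9.39 and 9.32 at 6 h, 8.30 and 8.70 at 24 h and 7.69 and 7.85 at 48 h. In this line it was highest at 6 h and each later time lay below the one before, without overlap, although the step from 6 to 24 h (-0.86 ± 0.52, adjusted p = 0.392) and that from 24 to 48 h (-0.73, adjusted p = 0.7) did not pass. Against 0 h it rose at least 14.4-fold at 2 h (4.10 ± 0.63, adjusted p = 0.00238), at least 29.8-fold at 6 h (5.14 ± 0.63, adjusted p = 0.000342), at least 16.4-fold at 24 h (adjusted p = 0.00485) and at least 9.87-fold at 48 h (3.55 ± 0.63, adjusted p = 0.017). The 48 h call ended without either 48 h array (adjusted p = 0.0681 without replicate 1 and 0.11 without replicate 2) and with a trended, robust variance prior (adjusted p = 0.0657).

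In NBTII-FGFR1, Mmp13 read 4.08 and 4.57 in the controls, 6.55 at 0.5 h, 10.10 and 8.24 at 2 h, 11.31 and 10.14 at 6 h, 10.67 and 11.34 at 24 h and 12.37 and 12.22 at 48 h. Only 1 of the 2 control arrays was above background, those of 2 h lay just below those of 6 h, those of 6 and 24 h overlapped, and both 48 h arrays were the highest. The log2 rise was 4.85 ± 0.52 at 2 h (adjusted p = 4.73e-05), 6.40 ± 0.52 at 6 h (adjusted p = 2.39e-06), 6.68 ± 0.52 at 24 h (adjusted p = 7.98e-06) and 7.97 ± 0.52 at 48 h (adjusted p = 6.6e-07). Without the doubted arrays it was 3.67 ± 0.56 at 2 h (adjusted p = 0.0028), 6.16 ± 0.49 at 6 h (adjusted p = 2.63e-05), 6.44 at 24 h (adjusted p = 0.000107) and 7.73 at 48 h (adjusted p = 1.14e-05).

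Mmp13 was also the only member that passed the test at 0.5 h, in the comparison over both lines (2.07 ± 0.48, adjusted p = 0.0373). The log2 difference was 1.95 without the doubted arrays. This comparison rests on 1 array per line at 0.5 h, 2 of the 3 arrays of 0 h were at background, and the call ended in 8 of 18 fits with 1 array left out (adjusted p up to 0.113). The lines did not differ past the threshold in Mmp13 at 2 h (0.86, 95% interval -0.25 to 1.96, adjusted p = 0.339), at 6 h (1.37, 0.26 to 2.47, adjusted p = 0.228) or at 24 h (2.51, 1.40 to 3.61, adjusted p = 0.0783), but at 48 h NBTII-FGFR1 was 23.1-fold higher (4.53 ± 0.52, adjusted p = 0.00023). At 2 h the direction turned without the doubted arrays (-0.08), and at 24 h the difference passed without them (adjusted p = 0.0178).

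Mmp9 encodes gelatinase B, which cuts type IV collagen and gelatin. The brighter of its 2 probe sets (1398275_at) read 3.66 and 3.69 in the NBTII-FGFR1 controls, 4.0 at 0.5 h, 6.56 and 6.35 at 2 h, 8.75 and 8.35 at 6 h, 4.07 and 4.20 at 24 h and 5.59 and 4.60 at 48 h. Mmp9 was therefore transient: both 6 h arrays were the highest, the 2 h arrays came next, those of 24 h were back in the background range, and at 48 h both were above it but a log2 unit apart. The other probe set (1369166_at) read 3.52 and 3.79, 3.61, 5.46 and 5.19, 7.93 and 7.61, 4.48 and 4.24, and 5.40 and 4.26 at the same times. The 2 probe sets correlated at 0.977 over the 21 arrays.

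Mmp9 rose at least 4.03-fold at 2 h (log2 2.78 ± 0.29, adjusted p = 3.7e-05) and at least 17.2-fold at 6 h (4.88 ± 0.29, adjusted p = 3.97e-07) by the brighter probe set, and by 1.67 ± 0.33 (adjusted p = 0.00557) and 4.11 ± 0.33 (adjusted p = 2.39e-06) by the other. At 24 h the differences from 0 h were 0.46 and 0.70 and did not pass (adjusted p = 0.416 and 0.248). At 48 h Mmp9 was higher than at 0 h again, by 1.42 ± 0.29 (adjusted p = 0.00243) and 1.18 ± 0.33 (adjusted p = 0.0184). That call leaned on 1 array: without 48 h replicate 1 the values were 0.93 (adjusted p = 0.0524) and 0.61 (adjusted p = 0.297). Without the doubted arrays the brighter probe set gave 2.66 ± 0.43 at 2 h (adjusted p = 0.00376), 4.86 ± 0.37 at 6 h (adjusted p = 2.01e-05) and 1.41 at 48 h (adjusted p = 0.0203). The other gave 3.97 at 6 h (adjusted p = 0.000116) and lost its calls at 2 h (1.40, adjusted p = 0.14) and at 48 h (1.04, adjusted p = 0.121).

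In NBTII the brighter Mmp9 probe set read 3.73 at 0 h, 3.66 at 0.5 h, 5.08 and 4.40 at 2 h, 5.27 and 4.53 at 6 h, 3.83 and 3.74 at 24 h and 3.80 and 3.72 at 48 h. The 2 and 6 h arrays were above all others of the line, but the differences of 1.0 ± 0.35 (adjusted p = 0.161) and 1.17 ± 0.35 (adjusted p = 0.0705) did not pass. With 1 array left out the 6 h difference ran from 0.80 to 1.54 and passed in some of those fits. The lines differed 12.6-fold at 6 h (3.65 ± 0.29, adjusted p = 4.24e-05) and, by the other probe set, by 3.32 on the log2 scale (adjusted p = 0.000306), with 1 of 2 NBTII arrays at background. At 2 h they differed by 1.72 ± 0.29 (adjusted p = 0.0113), again with 1 of 2 NBTII arrays at background, and by 1.62 without the doubted arrays (adjusted p = 0.0874). At 24 h they did not differ past the threshold (0.35, interval -0.27 to 0.96). At 48 h the difference was at least 1.53-fold (1.34 ± 0.29, adjusted p = 0.0109) and its call ended in 3 of 18 fits; it was 0.85 without NBTII-FGFR1 48 h replicate 1 (adjusted p = 0.18).

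Mmp14 encodes the membrane-anchored MT1-MMP, which activates the proenzyme of MMP2 together with TIMP2. Its probe set (1367860_a_at) was above background on all 21 arrays, with its highest levels at 2 and 6 h. In NBTII it read 7.93 at 0 h, 8.21 at 0.5 h, 9.04 and 9.28 at 2 h, 9.05 and 9.45 at 6 h, 7.42 and 7.19 at 24 h and 8.13 and 8.07 at 48 h. In NBTII-FGFR1 it read 7.87 and 8.19 at 0 h, 8.68 at 0.5 h, 8.86 and 9.53 at 2 h, 9.38 and 9.82 at 6 h, 8.0 and 7.81 at 24 h and 8.91 and 8.69 at 48 h. In each line the 2 and 6 h arrays overlapped, and in NBTII-FGFR1 the 48 h arrays overlapped those of 2 h. The 24 h arrays were below the control in NBTII and overlapped the controls in NBTII-FGFR1.

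At 6 h Mmp14 rose 2.49-fold in NBTII (log2 1.32 ± 0.26, adjusted p = 0.00754) and 2.97-fold in NBTII-FGFR1 (1.57 ± 0.21, adjusted p = 0.000136), and at 2 h by 1.23 ± 0.26 (adjusted p = 0.0181) and 1.16 ± 0.21 (adjusted p = 0.0031). The 2 h call ended in NBTII without 2 h replicate 2 (1.11, adjusted p = 0.061) and in NBTII-FGFR1 without 0 h replicate 1 (1.01, adjusted p = 0.0538). Without both doubted arrays the NBTII-FGFR1 differences were 1.34 ± 0.24 at 2 h (adjusted p = 0.00751) and 1.41 ± 0.21 at 6 h (adjusted p = 0.000873). It was higher than at 0 h again at 48 h in NBTII-FGFR1 (0.77 ± 0.21, adjusted p = 0.0168; 0.61, adjusted p = 0.0668, without the doubted arrays). The line difference passed at no time with all arrays; it was 0.03 at 2 h (interval -0.42 to 0.49), 0.36 at 6 h (-0.10 to 0.81), 0.60 at 24 h (0.15 to 1.05) and 0.70 at 48 h (0.25 to 1.15, adjusted p = 0.0556, and 0.0202 without the doubted arrays), and the arrays of the lines did not overlap at 24 and 48 h.

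Over the 6 metalloproteinase probe sets, then, the test of the line difference passed for 2 at 2 h (2.12% of all probe sets passed in either direction), 4 at 6 h (1.71%), 2 at 24 h (0.101%) and 4 at 48 h (8.45%), each higher in NBTII-FGFR1. None of the 7 TIMP probe sets passed at any of these times in the main limma fit. At an unadjusted p under 0.05 there were 2, 0, 0 and 2. At 48 h this depended on the setting. With array weights, and with only the arrays compared, more members passed than there are metalloproteinase probe sets, so TIMP probe sets passed there. The metalloproteinase counts without the doubted arrays were 0, 4, 3 and 5. At 24 h all 16 probe sets that passed were higher in NBTII-FGFR1.

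**Figure D3:**
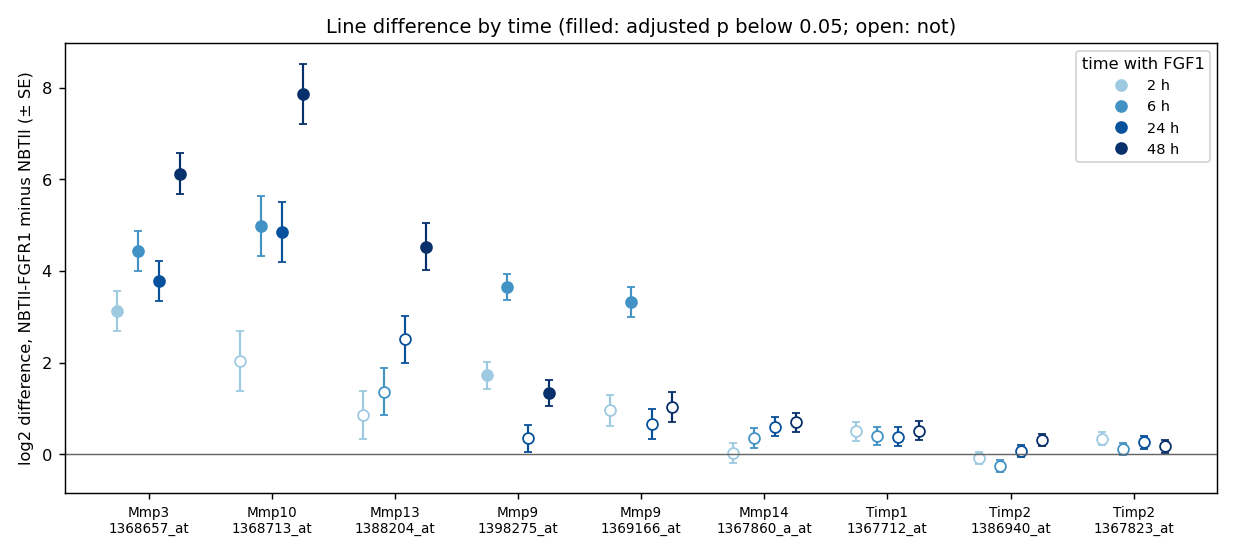
Log2 difference between the lines (NBTII-FGFR1 minus NBTII, ± SE, n = 2 arrays per group) for 9 member probe sets at 2, 6, 24 and 48 h, with darker points for later times. Filled points passed the test at an adjusted p below 0.05 and open points did not. Mmp3 and Mmp10 reach 6.12 and 7.86 at 48 h, Mmp9 is largest at 6 h, and the TIMPs stay within 0.52 of 0.

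Timp1 encodes a secreted inhibitor that binds most metalloproteinases, the MMP9 proenzyme included, but blocks the membrane-type enzymes poorly. Its probe set (1367712_at) read 10.01 at 0 h in NBTII, 10.52 at 0.5 h, 11.02 and 11.05 at 2 h, 11.16 and 11.20 at 6 h, 10.34 and 10.52 at 24 h and 9.94 and 10.15 at 48 h. In NBTII-FGFR1 it read 9.87 and 10.08 at 0 h, 10.69 at 0.5 h, 11.21 and 11.87 at 2 h, 11.88 and 11.28 at 6 h, 10.96 and 10.67 at 24 h and 10.61 and 10.51 at 48 h. Timp1 was highest at 2 and 6 h in both lines, overlapping between these times in NBTII-FGFR1, and the 48 h arrays overlapped the control in NBTII but lay above both controls in NBTII-FGFR1. The 0.5 h array of each line lay above all arrays of 0 h. Over both lines this difference did not pass with all arrays (log2 0.56 to 0.66 with 1 array left out).

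At 6 h Timp1 rose 2.25-fold in NBTII (log2 1.17 ± 0.25, adjusted p = 0.0126) and 3.05-fold in NBTII-FGFR1 (1.61 ± 0.21, adjusted p = 9.04e-05), and the NBTII call ended without 6 h replicate 1 (adjusted p = 0.0539). At 2 h it rose by 1.03 ± 0.25 (adjusted p = 0.041, lost in 12 of 18 fits with 1 array left out) and by 1.56 ± 0.21 (adjusted p = 0.000269). The NBTII-FGFR1 rise without the doubted arrays was 1.80 ± 0.24 at 2 h (adjusted p = 0.00112) and 1.51 ± 0.21 at 6 h (adjusted p = 0.000581). The rise in NBTII-FGFR1 at 24 h (0.84 ± 0.21, adjusted p = 0.0265) was lost in 4 of 18 fits and without the doubted arrays (0.74, adjusted p = 0.0826), and the 48 h difference was 0.59 ± 0.21 (adjusted p = 0.0548). The lines' arrays did not overlap from 2 h on, with NBTII-FGFR1 higher, but the differences of 0.50 (interval 0.07 to 0.94), 0.40 (-0.04 to 0.84), 0.39 (-0.05 to 0.82) and 0.52 (0.08 to 0.96) did not pass the test over all probe sets (adjusted p = 0.175, 0.404, 0.414 and 0.147).

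Timp2 encodes an inhibitor that also takes part in the activation of the MMP2 proenzyme on the cell surface. Its brighter probe set (1386940_at) ranged from 10.56 to 11.13 on the arrays of 0 to 24 h in both lines and read 11.22 and 11.42 at 48 h in NBTII and 11.60 and 11.66 in NBTII-FGFR1. The 4 arrays of 48 h were thus the highest of the 21. The rise in NBTII-FGFR1 was 1.70-fold (log2 0.77 ± 0.13, adjusted p = 0.000582) and held in all 18 fits with 1 array left out and without the doubted arrays (0.82, adjusted p = 0.00164), while the NBTII difference of 0.34 ± 0.16 did not pass (adjusted p = 0.405) and neither did the difference between the lines (0.31, interval 0.04 to 0.59). The second Timp2 probe set (1367823_at) ranged from 7.62 to 8.40, passed no test, and differed by 0.14 ± 0.14 at 48 h in NBTII-FGFR1 (adjusted p = 0.558). The 2 probe sets correlated at only 0.519, so the late rise rests on 1 of them.

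Timp3 encodes an inhibitor that is held in the matrix and also blocks several ADAM proteases. Of its 4 probe sets, 1372926_at (3.05 to 3.36) and 1375138_at (3.26 to 3.78) were below the lower quartile on all 21 arrays. The other 2, 1368989_at (4.26 to 4.93, below it on 1 array) and 1389836_a_at (4.73 to 5.24), lay just above it. No Timp3 probe set passed any test, and their pairwise correlations ran from 0.03 to 0.514, so the array gives no firm reading of Timp3 in either line.

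**Figure D4:**
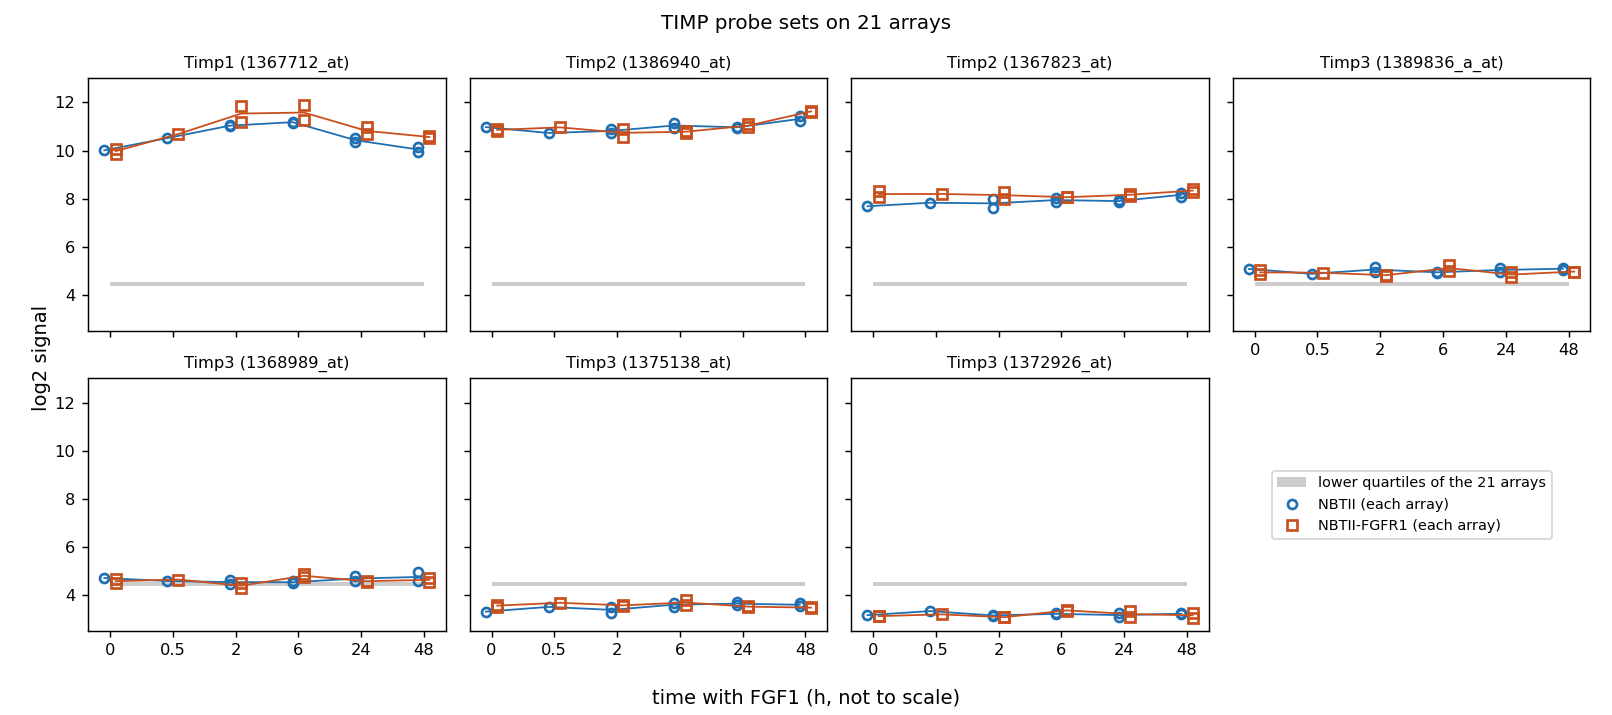
Log2 signal of the 7 TIMP probe sets on the 21 arrays, by hours with FGF1 (x axis, not to scale), with the same symbols, lines and grey background band as for the metalloproteinases. Timp1 peaks at 2 and 6 h in both lines, the brighter Timp2 probe set is highest at 48 h, and the Timp3 probe sets stay at or near the band.

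In the step from 6 to 24 h some members passed the test and others did not. In NBTII-FGFR1, 4 of the 13 probe sets fell and none rose (14.8% of all probe sets passed in either direction): both Mmp9 probe sets, by 4.42 ± 0.29 (at least 18.0-fold lower, adjusted p = 1.38e-06) and by 3.41 ± 0.33 (adjusted p = 3.24e-05), Mmp14 by 1.70 ± 0.21 (adjusted p = 0.000214) and Timp1 by 0.76 ± 0.21 (adjusted p = 0.022). In NBTII 3 fell and none rose (8.3% of all): Mmp14 by 1.94 ± 0.21 (adjusted p = 0.000112), Mmp9 by 1.11 ± 0.29 (1398275_at, adjusted p = 0.0281) and Timp1 by 0.75 ± 0.21 (adjusted p = 0.0353). Mmp3, Mmp10 and Mmp13 did not pass in either line; their differences in NBTII-FGFR1 were 0.13 (interval -0.81 to 1.07), 0.07 (-1.32 to 1.46) and 0.28 (-0.82 to 1.38). Leaving out 1 array ended the Timp1 call in 2 of 18 fits in NBTII-FGFR1 and 6 in NBTII, and the NBTII Mmp9 call in 3.

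Whether the step from 6 to 24 h differed between the lines was tested for every probe set. In Mmp12, which lies between Mmp13 and Mmp3, the step was -2.60 ± 0.31 in NBTII-FGFR1 and -0.27 ± 0.31 in NBTII. That difference did not pass. The second Mmp9 probe set gave -2.65 ± 0.47 and did not pass either (adjusted p = 0.174). The brighter Mmp9 probe set was below the lower quartile on every 24 h array of both lines (NBTII 3.83 and 3.74, NBTII-FGFR1 4.07 and 4.20). Both falls thus ended at background, and its test cannot separate a different fall from the different level at 6 h. Only this probe set, of all 15866 (0.0063%), passed the test of the difference itself (-3.31 ± 0.41, adjusted p = 0.0135). The call ended in 5 of 18 fits with 1 array left out, with values from -3.68 to -2.94 and an adjusted p up to 0.152, and without the doubted arrays (adjusted p = 0.054). In the F test of whether the line difference changed over 2, 6, 24 and 48 h, 3 member probe sets passed (0.441% of all): the Mmp9 probe sets 1398275_at (F = 23.1, adjusted p = 0.013) and 1369166_at (F = 13.7, adjusted p = 0.0424) and Mmp10 (F = 13.3, adjusted p = 0.0467). The call for the second Mmp9 probe set and that for Mmp10 each ended in 13 of 18 fits and without the doubted arrays, and that for 1398275_at ended in 1 of 18 (adjusted p = 0.0534). Mmp13 (adjusted p = 0.08) and Mmp3 (adjusted p = 0.0972) did not pass.

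**Figure D5:**
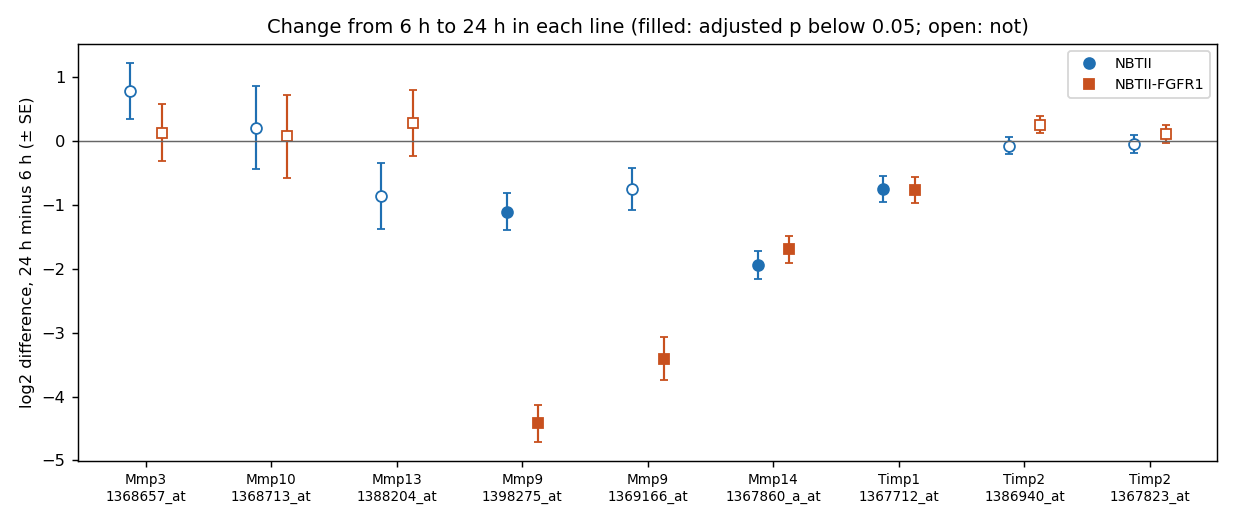
Log2 difference between 24 h and 6 h (± SE, n = 2 arrays per group) for 9 member probe sets, with circles for NBTII and squares for NBTII-FGFR1. Filled points passed the test at an adjusted p below 0.05. Mmp9 falls by 4.42 and 3.41 in NBTII-FGFR1, Mmp14 and Timp1 fall by similar amounts in both lines, and the points of Mmp3, Mmp10 and Mmp13 are open.

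From 24 to 48 h, a comparison added after the values were seen, 3 members rose in NBTII-FGFR1 (9.57% of all probe sets passed in either direction): Mmp14 by 0.89 ± 0.21 (adjusted p = 0.0159), Timp2 (1386940_at) by 0.59 ± 0.13 (adjusted p = 0.00908) and Mmp9 (1398275_at) by 0.96 ± 0.29 (adjusted p = 0.0496). Leaving out 1 array ended the first call in 3 of 18 fits, the second in 3 and the third in 11, and the third also ended without the doubted arrays. In NBTII no member passed in the limma fit (0.063% of all probe sets did), 3 had an unadjusted p under 0.05, and Mmp14 differed by 0.79 ± 0.21 (adjusted p = 0.161).

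Over the 21 arrays the members fell into patterns that can be described by their correlations, which share lines, times and hybridisations and carry no test. Mmp3 and Mmp10 correlated at 0.939, Mmp3 and Mmp13 at 0.883 and Mmp10 and Mmp13 at 0.803. Mmp9 correlated with Timp1 at 0.781 and with Mmp14 at 0.737, and Mmp14 with Timp1 at 0.754. Mmp9 correlated less with the clustered genes (0.493 to 0.577), and Timp2 (1386940_at) correlated with no other member above 0.442.

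Among 764 other probe sets with a spread over the arrays of at least 0.5 (SD), the patterns most like Mmp3 were those of Kitlg (Pearson 0.907), Tm4sf1 (0.883) and Src (0.879). Those nearest Mmp10 were Cfap36 (0.921), Capn8 (0.913) and P2ry2 (0.902), and those nearest Mmp13 were Msn (0.913), Akr1b8 (0.902) and Cd59b (0.901). Mmp9 ran closest to Arg1 (0.886), Procr (0.879) and Tnfaip6 (0.865), Mmp14 to Ppard (0.938), Sdc1 (0.924) and Jarid2 (0.915), and Timp1 to F3 (0.912), Efnb1 (0.896) and Ereg (0.893). Timp2 ran closest to Parm1 (0.884), Ddit3 (0.877) and Sdf2l1 (0.85). Timp3 had no close neighbour (Lcn2 at 0.483, Cox6a2 at 0.418 and Ceacam1 at 0.392).

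Other genes of the same cluster and family were read from lists, 1 probe set a gene. Of 9 measured metalloproteinase or TIMP genes outside the members, 2 rose at 6 h in NBTII-FGFR1 and none fell (21.3% of all probe sets passed in either direction), the same count without the doubted arrays, and in NBTII none passed (5.9% of all). Mmp12, the macrophage elastase, lies between Mmp13 and Mmp3 and read 4.59 and 4.29 in the NBTII-FGFR1 controls, 4.17 at 0.5 h, 4.49 and 5.16 at 2 h, 6.99 and 8.28 at 6 h, 4.92 and 5.14 at 24 h and 7.36 and 6.93 at 48 h. It was high at 6 and 48 h and low between them, and in NBTII it stayed between 4.24 and 5.03. The rises were 3.20 ± 0.31 at 6 h (adjusted p = 1.31e-05) and 2.7 ± 0.31 at 48 h (adjusted p = 3.5e-05), or 3.35 and 2.85 without the doubted arrays, and the line differences were 2.76 at 6 h (adjusted p = 0.00115) and 2.42 at 48 h (adjusted p = 0.000515). Mmp24, a membrane-type enzyme, rose by 1.27 ± 0.19 at 6 h (adjusted p = 0.000359; adjusted p = 0.00378 without the doubted arrays). Mmp8 and Mmp7 of the cluster were below the lower quartile on all 21 arrays.

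A list of activators, cofactors and other protease inhibitors was counted in the same way. Of 14 measured, 7 rose and none fell at 6 h in NBTII-FGFR1 (21.3% of all probe sets passed), with a list median of 0.58, and 6 rose in NBTII (5.9% of all), with a median of 0.22. In NBTII-FGFR1 5 rose without the doubted arrays. Plau, the urokinase that makes plasmin, rose by 3.18 ± 0.25 in NBTII-FGFR1 (adjusted p = 2.39e-06) and by 3.01 ± 0.31 in NBTII (adjusted p = 0.000116), and was higher in NBTII-FGFR1 at 6 h by 1.11 ± 0.25 (adjusted p = 0.0394). The lines already stood apart in Plau at 0 h, at 8.14 and 8.17 in NBTII-FGFR1 and 7.21 in NBTII. Plaur, the urokinase receptor, rose by 3.17 ± 0.35 and 3.29 ± 0.42. Cd44, a receptor for hyaluronan that can hold MMP9 on the cell surface, rose by 1.08 ± 0.16 and 1.90 ± 0.19, and Serpine2, an inhibitor of urokinase and thrombin, by 1.53 ± 0.21 and 1.35 ± 0.26. The NBTII-FGFR1 values without the doubted arrays were 3.16 for Plau, 3.01 for Plaur, 1.0 for Cd44 and 1.45 for Serpine2 (adjusted p up to 0.00362).

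Of 16 measured matrix proteins, 2 rose at 6 h in NBTII-FGFR1 and none fell, against 21.3% of all probe sets that passed. These were Lama3, the laminin alpha 3 chain (2.38 ± 0.23, adjusted p = 1.07e-05), which also rose in NBTII (2.89 ± 0.28, adjusted p = 7.52e-05), and Spp1, osteopontin (1.07 ± 0.34, adjusted p = 0.0363), which differed by 0.01 in NBTII. Without the doubted arrays Lama3 kept its call (2.35, adjusted p = 7.8e-05) and Spp1 did not pass (1.08, adjusted p = 0.104). At 48 h in NBTII-FGFR1, 2 rose and 4 fell (21.4% of all probe sets passed), and 2 and 3 without the doubted arrays. Of 8 measured ADAM and ADAMTS proteases 1 rose, Adam10, a sheddase of cell surface proteins, by 0.67 ± 0.18 in NBTII-FGFR1 (adjusted p = 0.015) and by 0.96 ± 0.22 in NBTII (adjusted p = 0.0174), where 21.3% and 5.9% of all probe sets passed. The NBTII-FGFR1 difference without the doubted arrays was 0.65 and did not pass (adjusted p = 0.0771).

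Of 11 measured AP-1, ETS and RUNX factors, 6 rose and none fell at 0.5 h over both lines (2.2% of all probe sets passed). At 2 h 4 rose in NBTII-FGFR1 (9.35% of all) and 6 in NBTII (2.94% of all), and none fell. At 6 h 4 rose and 3 fell in NBTII-FGFR1 (21.3% of all), and 3 rose and 1 fell in NBTII (5.9% of all). In NBTII-FGFR1 3 rose and 3 fell without the doubted arrays. Fosl1, the AP-1 subunit FRA1, read 7.04 at 0 h in NBTII and 9.01 and 9.28 in NBTII-FGFR1, and 10.86 and 10.91 against 11.04 and 11.22 at 6 h. It rose by 3.85 ± 0.23 in NBTII (adjusted p = 8.75e-07) and by 1.98 ± 0.19 in NBTII-FGFR1 (adjusted p = 9.16e-06), and the lines did not differ past the threshold at 6 h (0.25, adjusted p = 0.62). Ets2 rose by 0.83 ± 0.17 in NBTII-FGFR1 (adjusted p = 0.00314) and differed by 0.46 in NBTII (adjusted p = 0.271). Fos read 4.90 at 0 h in NBTII and 9.52 and 9.03 in NBTII-FGFR1. At 0.5 h, with 1 array per line, it read 10.68 against 11.09. It read 6.50 and 7.08 against 9.78 and 8.82 at 2 h, and 5.19 and 5.40 against 5.33 and 6.87 at 6 h. It fell by 3.17 ± 0.40 at 6 h in NBTII-FGFR1 (adjusted p = 8.53e-05) and differed by 0.40 in NBTII (adjusted p = 0.797), and the line difference at 6 h was 0.81 and did not pass (adjusted p = 0.385). Jund fell by 0.79 ± 0.14 in NBTII-FGFR1 and by 1.12 ± 0.17 in NBTII. Without the doubted arrays the NBTII-FGFR1 values were 1.85 for Fosl1, 0.90 for Ets2, -2.93 for Fos and -0.78 for Jund, each past the threshold (adjusted p up to 0.0137).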

How the data were processed

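Total RNA of 21 samples was hybridised to Affymetrix rat expression arrays. The authors deposited log2 signals, computed by RMA according to what is listed per the submitters' processing notes, which name no version. RMA had already brought the arrays to like distributions (medians 6.13 to 6.22), so no further normalization was applied, and RMA compresses differences of dim probe sets. The fit took in 15866 probe sets, after 57 controls were set aside, without a filter. Symbols came from the platform annotation (12783 probe sets with 1 symbol, 312 with several, 2771 with none). Groups came from the sample titles. One linear model over the 12 group means was fitted with limma 3.58.1 in R 4.3.3 (9 residual and 5.68 prior degrees of freedom), and p-values were adjusted over all 15866 probe sets within each comparison by the Benjamini-Hochberg method, with a threshold of 0.05. For the 3 groups of 1 array the spread is taken from the other groups. Log2 differences are given with the standard error of this fit, and their intervals are 95% intervals. A fold written as "at least" sets the mean of the brighter group against a floor, the arrays' lower quartiles, where every array of the dimmer group is below it. The number of arrays limits the precision.

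All member probe sets were named. Of each pathway list, up to 4 genes past the threshold in NBTII-FGFR1 at 6 h with the smallest adjusted p were named, and for each member the 3 genes with the highest Pearson correlation. Mmp12 and Fos were also described at other times, and Mmp8 and Mmp7 as neighbours of Mmp12. The members, lists and tests were chosen with earlier results of these data known. The steps from 24 to 48 h were added after the values were seen. Same-numbered samples showed no common deviation over most pairs of groups, though some pairs shared one (36 pairs, median r 0.02, from -0.13 to 0.35, 15 over 0.1). Replicate numbers were therefore taken as names only in the main fit. Tables and figures were made with Python 3.11.15, pandas 2.3.3, numpy 2.4.6 and matplotlib 3.10.9, and the fit was tested on simulated data.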

Additional observations from a re-analysis of the deposited data

Results flagged for a closer look

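The change from 6 to 24 h in Mmp9 (1398275_at) differed between the lines, by -3.31 on the log2 scale (NBTII-FGFR1 minus NBTII), by the test of the difference itself. This call was not firm, the second Mmp9 probe set did not pass, and 1398275_at was at background in both lines at 24 h. The line difference also changed over 2 to 48 h by the F test for Mmp9 (1398275_at, F = 23.1), Mmp9 (1369166_at, F = 13.7) and Mmp10 (F = 13.3). No member group had enough arrays to look for a sample far from the others.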

How the results depend on the processing

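Each count of member probe sets past the threshold, of 13, and each named difference was recomputed under 7 other settings and with 1 array left out of each group of 2 in turn. For a trended, robust variance prior the counts that moved by over 1.5 times were 0 at 0.5 h, 1 at 24 h and 0 at 48 h in NBTII, 1 for the 24 h line difference and 1 for the F test over 2 to 48 h. With array weights they were 2 at 0.5 h, 0 and 8 for the 2 and 48 h line differences, and 5 and 2 for the step from 24 to 48 h in NBTII-FGFR1 and NBTII. Fitting only the arrays compared, with fewer degrees of freedom, gave 0, 0 and 1 at 2, 6 and 24 h in NBTII, 0, 1 and 7 for the line differences at 2, 24 and 48 h, 1 for the F test and 1 for NBTII from 24 to 48 h. Leaving out probe sets below the median level, which removes both of Mmp9, gave 1 and 2 for the line differences at 2 and 6 h, 2 for the fall from 6 to 24 h in NBTII-FGFR1, 0 for its difference between lines and 1 for the F test. Without both doubted arrays, the 2 h line difference counted 0, the difference between lines in the step from 6 to 24 h counted 0, and the Mmp13 line difference at 2 h turned to -0.076. Replicate numbers were not used as pairs in the main fit. With number as a replicate block, the difference between lines in the step from 6 to 24 h counted 2 in place of 1, and the other counts stayed within 1.5 times. Repeating the quantile normalization moved 1 of 97 named differences across the threshold. The cause of these shifts was not tested beyond what the settings themselves remove.

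With 1 array left out at a time, the count in NBTII-FGFR1 ran from 4 to 7 at 2 h, 3 to 4 at 24 h and 4 to 8 at 48 h, and was 7 in each of the 18 fits at 6 h. It ran from 0 to 2 at 0.5 h, and in NBTII from 1 to 3 at 2 h, 2 to 4 at 6 h, 1 to 2 at 24 h and 0 to 1 at 48 h. For the line difference it ran from 0 to 3 at 2 h, 3 to 4 at 6 h, 0 to 3 at 24 h and 3 to 5 at 48 h. For the step from 6 to 24 h it ran from 3 to 4 in NBTII-FGFR1, 1 to 3 in NBTII and 0 to 1 for their difference, and the F test gave 0 to 4. From 24 to 48 h it ran from 0 to 5 in NBTII-FGFR1 and 0 to 1 in NBTII. Among the single differences, 3 changed sign: the Mmp13 line difference at 2 h (-0.076 to 1.79), the Mmp3 step from 6 to 24 h in NBTII (-0.17 to 1.73) and its difference between the lines (-1.60 to 0.30). Single arrays at 0 h in NBTII and at 0.5 h in both lines, and signals at background in Mmp3, Mmp9, Mmp10 and Timp3, limit what the array can show.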
